A study of Mus musculus with 7 samples.

Results

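The subject is 10 genes of microglia and of the complement system, taken by symbol from the 17732 genes of the authors' deposited table. Of these, 5 are homeostatic microglial genes (Cx3cr1, P2ry12, Tmem119, Csf1r and Trem2) and 5 are complement components (C1qa, C1qb, C1qc, C3 and C4b). Polyadenylated RNA of wild-type male 129SvEv mice, an inbred strain, was sequenced from medial prefrontal cortex taken after a remote memory had been retrieved. The 7 libraries fall into groups labelled CFC (3 libraries) and SC (4 libraries), and the labels do not write these names out. Sex, strain, genotype, tissue and retrieval are common to both groups. The labels give no age and do not say whether each library comes from 1 animal, so the p-values measure the spread between libraries, which may be partly technical.

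Microglia are the resident macrophages of the brain. In their homeostatic state they survey the tissue with receptors for signals from neurons and other cells, and they depend on the receptor encoded by Csf1r for survival. Complement is a cascade of blood and tissue proteins: C1q binds a target, C4 and then C3 are cleaved and deposited on it, and phagocytes recognise the deposit through C3 receptors. In the brain C1q is made mainly by microglia, and complement deposited on synapses is a known tag for their removal by microglia. C4b transcripts are known in mouse brain from astrocytes and oligodendrocytes.

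Every value below comes from 1 comparison of the 2 groups, for which the authors deposited the mean normalized count over libraries, the log2 fold change and the standard error (SE) of that change. The table does not say which group is the numerator, so each difference is positive or negative and neither group is called higher. Values of single libraries were not analysed here, so whether the groups overlap in any gene is unknown. In whole tissue, fewer cells of a type and less RNA per cell cannot be told apart.

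None of the members passed an adjusted p-value of 0.05 per the authors' deposited table (DESeq2, Benjamini-Hochberg), where 0.513% of the 13060 genes with an adjusted p-value did. C3 had no adjusted p-value, its mean count being below 34.9, the lowest with one, and the other 9 members ran from 0.389 for C4b to 0.999. Those under an unadjusted p-value of 0.05 were 2 members, C4b on the positive side and Csf1r on the negative side. Over all 17729 genes with a p-value, 6.82% were under that threshold, 4.04% positive and 2.78% negative. For 7 of the 10 members the 95% confidence interval, computed from the authors' deposited table, lay inside a 1.3-fold change in either direction. The exceptions were Trem2, C3 and C4b.

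**Figure D1:**
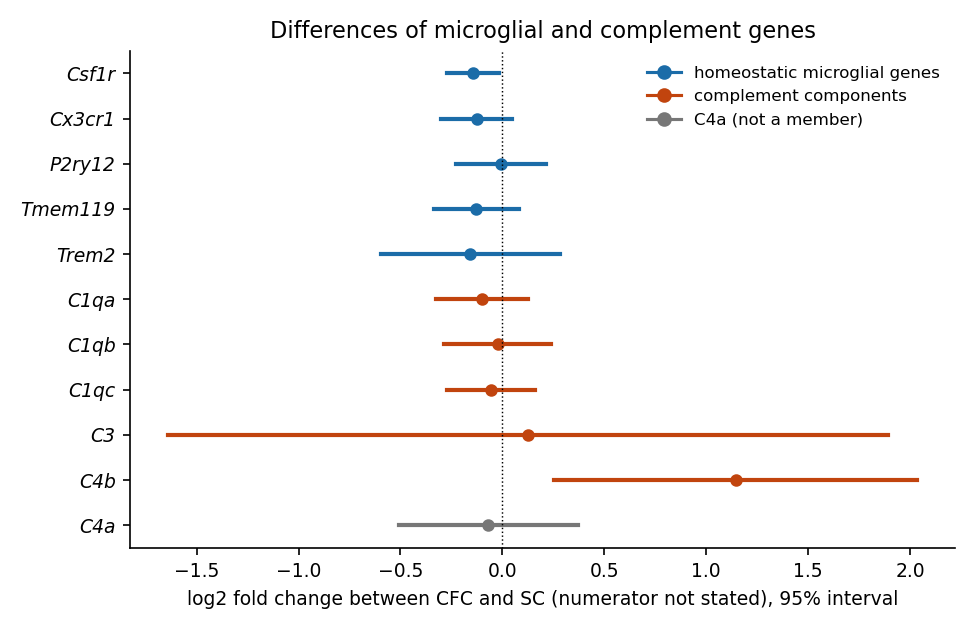
Log2 fold change between the CFC and SC libraries (horizontal axis) of the 10 members and of C4a, with 95% intervals computed from the deposited standard errors. The 5 homeostatic genes and the 3 C1q chains lie close to 0, C3 has an interval from -1.64 to 1.89, and the interval of C4b runs from 0.25 to 2.04.

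Among the homeostatic genes, Csf1r (ENSMUSG00000024621), the receptor for the cytokines CSF1 and IL-34, had the highest mean count, 1521 per the authors' deposited table. Its log2 fold change there was -0.14 ± 0.07 (SE), with a 95% interval from -0.27 to -0.02, an unadjusted p-value of 0.0276 and an adjusted one of 0.533. The interval corresponds to a ratio between 0.828 and 0.989, so a change beyond 1.21-fold lies outside it. In GENCODE M21 on GRCm38, the assembly also called mm10, the gene lies at chr18:61100598-61132149 on the plus strand. It shares 873 exon bases with Hmgxb3 on the opposite strand, and without a stated strand setting reads there cannot be assigned to either gene. Hmgxb3 had a log2 fold change of 0.02 ± 0.07 (SE) per the authors' deposited table.

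Cx3cr1 (ENSMUSG00000052336, chr9:119901616-120069879, minus strand) encodes the receptor for fractalkine, a chemokine displayed by neurons. With a mean count of 921, its log2 fold change per the authors' deposited table was -0.13 ± 0.09 (SE). P2ry12 (ENSMUSG00000036353, chr3:59216272-59262871, minus strand), the ADP receptor that guides microglial processes, had a mean count of 672 and the smallest difference of the group, -0.0073 ± 0.11 (SE), per the authors' deposited table. Its interval excludes any change beyond 1.17-fold, the narrowest bound of all members. Tmem119 (ENSMUSG00000054675, chr5:113793729-113800516, minus strand), a membrane protein used to mark microglia, had a mean count of 317 and a log2 fold change of -0.13 ± 0.11 (SE) per the authors' deposited table. Trem2 (ENSMUSG00000023992, chr17:48346401-48354147, plus strand), a lipid-sensing receptor that signals through the adaptor TYROBP, had a mean count of 63.7 and -0.16 ± 0.22 (SE). For Trem2 the depth leaves changes of up to 1.51-fold inside the interval. In GENCODE M21, exons of Cx3cr1 share 78 bases with the antisense gene Gm33858, and those of P2ry12 share 9 bases with Med12l on the opposite strand. Adjusted p-values per the authors' deposited table were 0.876 for Cx3cr1, 0.999 for P2ry12, 0.939 for Tmem119 and 0.994 for Trem2.

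All 5 homeostatic log2 fold changes were negative, between -0.16 and -0.0073, with a median of -0.13. For comparison, the 13060 genes given an adjusted p-value had a median of -0.0017, and 50.6% of them were negative. To pass the authors' threshold a gene needed a log2 fold change of 3.68 times its SE, which is a 1.18-fold change for Csf1r, 1.26-fold for Cx3cr1 and 1.77-fold for Trem2. The observed differences of these 3 genes were smaller than that. The SEs of the 5 genes were 0.936 to 1.31 times the median of genes of similar mean count, so their errors were ordinary for their abundance.

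The C1q chains come from a cluster of 3 genes within 18.7 kb of chr4, all on the minus strand. C1qb (ENSMUSG00000036905) lies at chr4:136880129-136886187, C1qc (ENSMUSG00000036896) at chr4:136889804-136893065 and C1qa (ENSMUSG00000036887) at chr4:136895917-136898803. Their products assemble into the C1q molecule together, and their log2 fold changes differed from each other by less than their SEs. Mean counts per the authors' deposited table were 283 for C1qa, 245 for C1qb and 298 for C1qc. The log2 fold change of C1qa was -0.10 ± 0.12 (SE), that of C1qb -0.02 ± 0.13 (SE) and that of C1qc -0.06 ± 0.11 (SE) per the authors' deposited table. None of the chains was under an unadjusted p-value of 0.05 there (0.379, 0.860 and 0.611 in that order). Changes beyond 1.26-fold, 1.22-fold and 1.21-fold lie outside their intervals.

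The 250 bases before the RefSeq starts of C1qb and C1qc, and of the homeostatic gene P2ry12, are shown because these are the members with small and similar differences whose promoter window holds an ETS-type motif. PU.1, the product of Spi1, is the ETS factor that macrophages and microglia require. Capitals mark AGGAAGT or its reverse complement, searched on both strands. The letters occur in 3 of the 6 member promoters available (C1qb, C1qc, C3, Cx3cr1, P2ry12 and Trem2) and in 7.7% of all 32851 promoter windows of that length. The motif was chosen after the promoters had been searched, and a match is a description of the sequence only. The windows are chr4:136886201-136886450 for C1qb, chr4:136892915-136893164 for C1qc and chr3:59262986-59263235 for P2ry12, all on the minus strand of GRCm38.p6 and written 5′ to 3′ in the sense of the gene.
C1qb promoter: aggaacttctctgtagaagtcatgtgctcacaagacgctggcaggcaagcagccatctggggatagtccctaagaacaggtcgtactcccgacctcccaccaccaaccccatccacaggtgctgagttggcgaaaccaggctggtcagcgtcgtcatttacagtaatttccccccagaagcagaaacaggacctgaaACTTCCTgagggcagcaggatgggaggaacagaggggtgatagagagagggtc
C1qc promoter: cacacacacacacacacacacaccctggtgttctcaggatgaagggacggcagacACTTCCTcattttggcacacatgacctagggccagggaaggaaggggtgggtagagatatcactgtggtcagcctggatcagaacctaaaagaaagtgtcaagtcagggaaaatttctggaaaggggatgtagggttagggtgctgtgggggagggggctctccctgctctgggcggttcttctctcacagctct
P2ry12 promoter: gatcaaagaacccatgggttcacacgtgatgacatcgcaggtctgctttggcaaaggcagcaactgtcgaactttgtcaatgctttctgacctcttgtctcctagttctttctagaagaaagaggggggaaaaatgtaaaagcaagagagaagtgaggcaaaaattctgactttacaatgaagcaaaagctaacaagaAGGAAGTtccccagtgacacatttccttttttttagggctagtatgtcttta
The match begins 53 bases before the start in C1qb, 195 before it in C1qc and 52 before it in P2ry12. It is on the strand of the gene in P2ry12 and on the other strand in both C1q genes. All 3 distances are from the RefSeq starts. The RefSeq starts of C1qb and P2ry12 lie upstream of the GENCODE M21 starts. That of C1qc lies downstream of its GENCODE M21 start, chr4:136893065, so part of the C1qc window is inside the annotated gene. The C1qc match lies before both starts and is closer to the GENCODE one.

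C3 (ENSMUSG00000024164, chr17:57203970-57228136, minus strand), the component on which the classical, lectin and alternative routes converge, was close to the lower limit of the table. Its mean count per the authors' deposited table was 3.74, and its log2 fold change was 0.12 ± 0.90 (SE). The interval reaches from a ratio of 0.320 to one of 3.71. A difference within that range was not detectable at this depth.

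C4b (ENSMUSG00000073418, chr17:34728380-34743882, minus strand), the C4 component that C1 cleaves, stood apart from the other members. With a mean count of 165, its log2 fold change per the authors' deposited table was 1.14 ± 0.45 (SE), a 2.21-fold difference with an interval from 1.19-fold to 4.10-fold. The unadjusted p-value there was 0.0119 and the adjusted one 0.389. Its SE was 3.05 times the median SE at similar mean counts, whereas the ratios of the other 9 members lay between 0.936 and 1.31. Only 260 of the 17732 genes (1.47%) had a ratio over 2. Among the 950 genes with a mean count within 1.2-fold of that of C4b, 3 other genes had an SE as large, Opalin, Anln and Ndst4, which are named after their values were seen. Opalin, a myelin protein, had a log2 fold change of 1.41 ± 0.60 (SE) per the authors' deposited table. Anln, which encodes the actin-binding protein anillin, had 1.82 ± 0.54 (SE), and Ndst4, which encodes a heparan sulfate enzyme, had 1.05 ± 1.37 (SE) and no p-value per the authors' deposited table.

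Markers of mature oligodendrocytes were on the same side as C4b, with a median SE of 0.50. In the authors' deposited table all 10 of the 10 markers were positive, from 0.95 to 1.67 with a median of 1.28, and all 10 were under an unadjusted p-value of 0.05 and none under an adjusted one. Their mean counts ran from 177 for Opalin to 12290 for Mbp, none was at 0, and no level per group was analysed here. Their SEs had a median of 6.64 times the SE usual at their mean counts. Of the 10 astrocyte markers 3 were positive and 7 negative, with a median of -0.10 per the authors' deposited table. The 3 under an unadjusted p-value of 0.05 were all negative, and none passed the adjusted threshold. They were S100b at -0.44 ± 0.12 (SE) with an adjusted p-value of 0.0689, Aldoc at -0.17 ± 0.06 (SE) and Slc1a3 at -0.14 ± 0.07 (SE) per the authors' deposited table, named after their values were seen. The astrocyte marker with the highest mean count, the glutamate transporter Slc1a2, had -0.05 ± 0.07 (SE) there. Gfap, an intermediate filament of reactive astrocytes named after its value was seen, had 0.56 ± 0.43 (SE) with an SE 5.66 times the usual, also per the authors' deposited table. The part of these cells in the C4b difference was not tested.

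**Figure D2:**
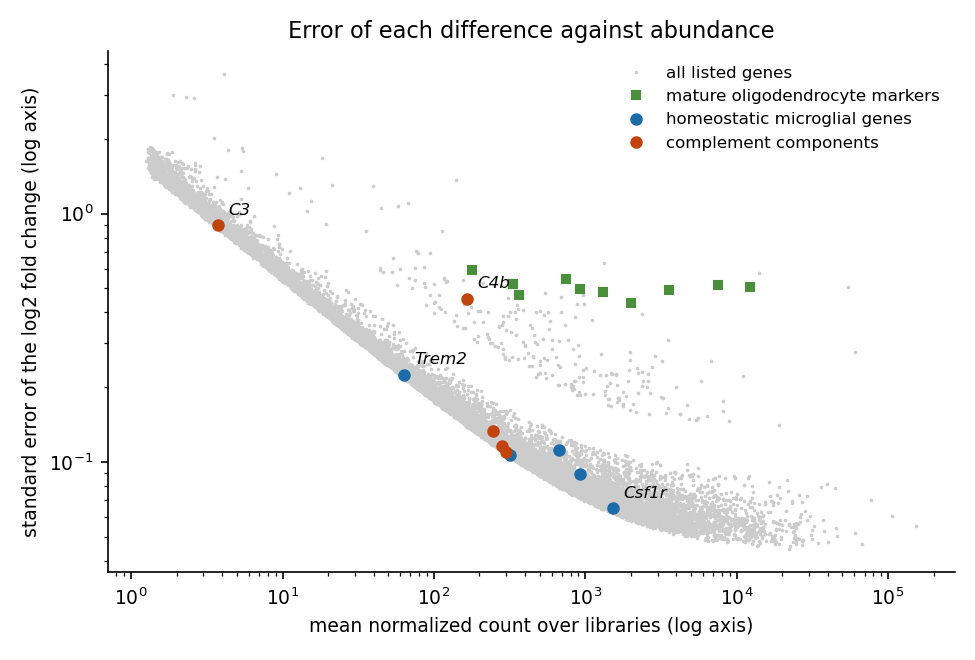
Standard error of the log2 fold change (vertical log axis) against the mean normalized count over the libraries (horizontal log axis), 1 point per gene. The members follow the trend of all genes, except C4b at 3.05 times the usual error. The mature oligodendrocyte markers lie further above the trend, at a median of 6.64 times the usual error. Of these markers only Opalin has a mean count near that of C4b (177 against 165).

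C4a, a duplicate of C4b that lies 65.2 kb away at chr17:34809092-34823464, had a lower log2 fold change than C4b. Its mean count was 67.8 and its log2 fold change -0.07 ± 0.22 (SE) per the authors' deposited table. The difference between the 2 genes was not tested. The longest transcripts of the pair in GENCODE M21 are identical at 96.1% of 5367 aligned bases. Of the windows of 50 bases in the C4b transcript, 35.2% also occur in C4a, and of those of 100 bases 16.5%. Reads from these stretches cannot be assigned to either copy, so the counts of both genes are uncertain. At windows of 100 bases no other member shared any with another gene. The 60 coding bases of C4b that differ most from C4a are shown because only reads over differing bases separate the copies. Such bases also lie elsewhere in the transcripts. Capitals mark the 13 differing bases, positions are 2761 to 2820 of the C4b transcript and 2755 to 2814 of the C4a transcript, and both are written 5′ to 3′.
C4b transcript: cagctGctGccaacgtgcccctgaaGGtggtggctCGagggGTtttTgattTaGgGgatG
C4a transcript: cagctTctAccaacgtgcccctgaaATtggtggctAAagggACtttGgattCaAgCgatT

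Side by side, the homeostatic genes had a median log2 fold change of -0.13 and the complement components one of -0.02, computed from the authors' deposited table. The plain mean of the complement components was 0.22, to which C4b contributes most, and the 3 C1q chains alone had a median of -0.06. Of the 25 pairs of a homeostatic gene and a complement component, 21 had overlapping intervals. The 4 that did not were C4b with Csf1r, Cx3cr1, P2ry12 and Tmem119. A difference between the 2 sets could not be tested, since genes measured in the same libraries are not replicates and no library values were analysed here.

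Abundance was compared per length of the longest coding transcript, and no spread over libraries was available for it. Csf1r led with a mean normalized count of 324 per kb, followed by P2ry12 at 287, C1qa at 272, C1qc at 247, C1qb at 225 and Cx3cr1 at 205. Tmem119 had 141 per kb, Trem2 58.6 and C4b 30.6, while C3 had 0.728. The order depends in part on the length used. Over all annotated exons of each gene, a length chosen after seeing the data, C1qa led at 272 per kb, ahead of P2ry12 at 264 and Csf1r at 263, while C1qc fell below Cx3cr1 (154 against 204). Trem2 moved most, to 12.9 per kb, which is below C4b at 28.9. With either length the C1q chains lay above Tmem119 and Trem2, C4b lay below Cx3cr1, P2ry12, Tmem119 and Csf1r, and C3 was lowest. C4a, for which the annotation has no coding transcript, had 12.6 per kb of its longest one.

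**Figure D3:**
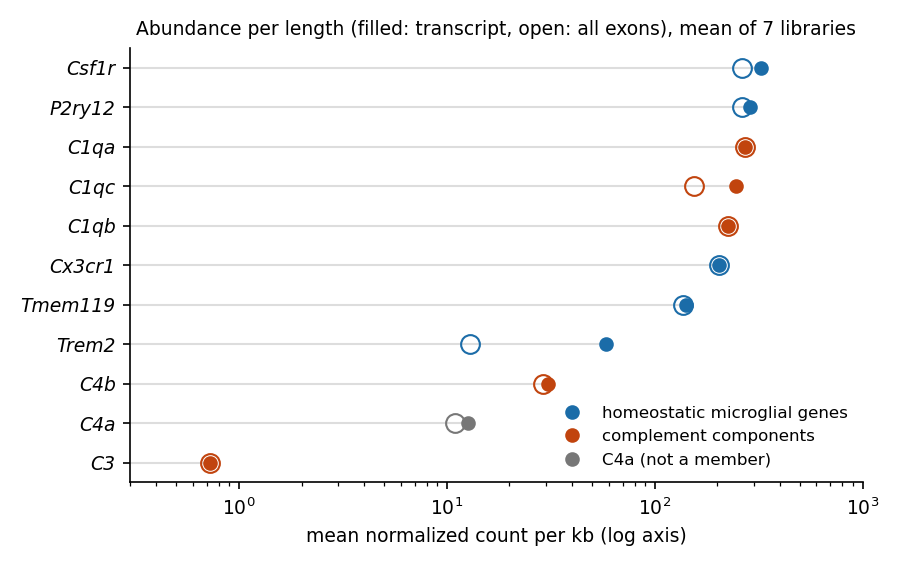
Mean normalized count per kb (horizontal log axis) of the 10 members and C4a, as the authors' mean over 7 libraries with no error; filled points use the longest coding transcript (for C4a its longest transcript) and open points all exons. Trem2 differs most between the lengths, 58.6 against 12.9, and C3 is lowest at 0.728 and 0.727.

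Other homeostatic microglial genes were mostly negative as well. Of 15 genes, 11 were negative and 4 positive per the authors' deposited table, with a median of -0.10. None of the 13 with an adjusted p-value passed the threshold on it. Of the 15 genes, 3 were under an unadjusted p-value of 0.05, all negative. Entpd1, an enzyme that degrades extracellular ATP, had a log2 fold change of -0.36 ± 0.13 (SE) and an adjusted p-value of 0.245 per the authors' deposited table. Of the 6 microglial transcription factors 3 were positive and 3 negative. Among them Mef2a had a log2 fold change of 0.10 ± 0.06 (SE) per the authors' deposited table and was not under an unadjusted p-value of 0.05.

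Ligands and signalling partners of the receptors were mostly negative too. Of 9 such genes, 7 were negative and 2 positive, with a median of -0.09 per the authors' deposited table. Fractalkine, Cx3cl1, the ligand of the Cx3cr1 product, had -0.14 ± 0.05 (SE), an unadjusted p-value of 0.0060 and an adjusted one of 0.286 per the authors' deposited table. Apoe, a lipid carrier that binds the Trem2 product, had -0.13 ± 0.05 (SE) and an adjusted p-value of 0.421 there. The ligands of the Csf1r product, Il34 and Csf1, had -0.09 ± 0.07 (SE) and -0.04 ± 0.10 (SE), and the adaptor gene Tyrobp had -0.09 ± 0.20 (SE), all per the authors' deposited table. Of this list Cx3cl1 and Apoe alone were under an unadjusted p-value of 0.05.

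Further complement genes were split by role. Of the 5 other classical and lectin pathway genes analysed here none was under an unadjusted p-value of 0.05, and 3 were positive. The smallest p-values were those of C1s1, a protease of the C1 complex, at 0.38 ± 0.60 (SE), and of C4a, per the authors' deposited table. For the alternative and terminal genes, 5 were analysed and none was under that threshold. C7, a terminal component, had 0.20 ± 0.23 (SE), and C8a, another terminal component, had -0.99 ± 1.15 (SE) on a mean count of 2.68 per the authors' deposited table. Of 16 regulators 11 were positive with a median of 0.04, and 2 were under an unadjusted p-value of 0.05. These were Csmd3, a brain membrane protein with complement control domains, at 0.21 ± 0.09 (SE), and C4bp, at -1.98 ± 0.91 (SE) on a mean count of 4.45, per the authors' deposited table. No gene of the complement lists passed the adjusted threshold, but many had no adjusted p-value and so could not pass, C4bp among them. Those with one were 2 of the 5 classical and lectin genes and 2 of the 5 alternative and terminal genes. Of the 16 regulators 12 had one, and of the 7 receptors described next 3 did.

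Receptors for complement fragments were scarce. Of 7 receptors analysed here 6 were negative and 1 positive, with a median of -0.22 and mean counts of at most 106 per the authors' deposited table. Itgb2, the beta subunit of complement receptor CR3, had -0.47 ± 0.23 (SE), an unadjusted p-value of 0.0386 and an adjusted one of 0.599 per the authors' deposited table. Its partner subunit Itgam had -0.04 ± 0.30 (SE), and C3ar1, the receptor for the fragment C3a, had -0.34 ± 0.29 (SE) per the authors' deposited table. Itgb2 alone of these receptors was under an unadjusted p-value of 0.05.

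Genes of activated microglia were of both signs. Of 15 analysed here, 11 were negative and 4 positive, with a median of -0.12 per the authors' deposited table, and 3 were under an unadjusted p-value of 0.05. Cd9, a tetraspanin that oligodendrocytes also express, was positive at 0.56 ± 0.17 (SE) with an adjusted p-value of 0.107 per the authors' deposited table. Axl, a receptor for the clearance of dead cells, was negative at -0.21 ± 0.08 (SE) with an adjusted p-value of 0.351 there.

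Small negative medians were also found in lists of other cells. In the authors' deposited table the median was -0.10 for the 10 astrocyte markers and -0.14 for the 10 endothelial and pericyte markers, 7 of 10 being negative in each. For the 8 neuronal markers it was -0.01. Under an unadjusted p-value of 0.05 were 3 of the astrocyte markers, 3 of the endothelial and pericyte markers and 1 of the neuronal markers, all negative and none past the adjusted threshold. Named after their values were seen, the endothelial ones were Slco1a4 at -0.24 ± 0.08 (SE), Tek at -0.27 ± 0.12 (SE) and Flt1 at -0.15 ± 0.07 (SE), and the neuronal one was Rbfox3 at -0.17 ± 0.07 (SE), per the authors' deposited table. The most abundant of each list were Rgs5 of pericytes, at -0.13 ± 0.09 (SE), and Snap25 of neurons, at -0.0075 ± 0.08 (SE), per the authors' deposited table. Whether the homeostatic genes differ from those lists was not tested. The 8 microglial markers set for the check of the label had mean counts from 63.7 to 1521, and the 2 monocyte and neutrophil genes analysed here had at most 1.80 (Ccr2). The 2 lymphocyte genes analysed here had at most 4.38 (Cd79a).

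**Figure D4:**
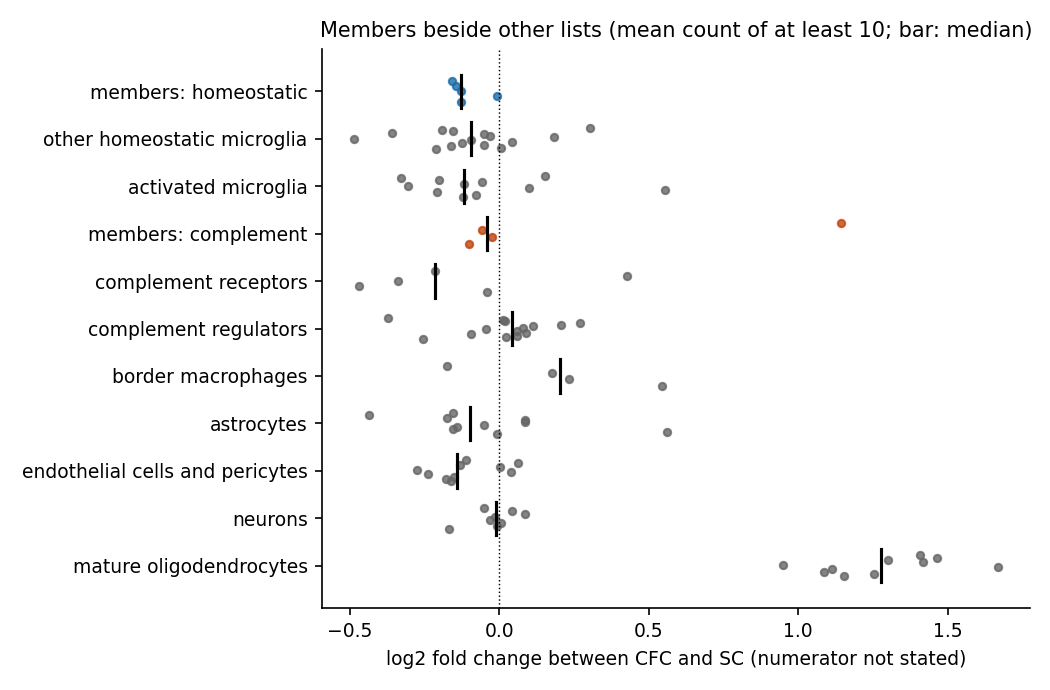
Log2 fold change between the CFC and SC libraries (horizontal axis) of the members and other gene lists, 1 point per gene with a mean count of at least 10 and a bar at the median. The homeostatic members centre on -0.13, the mature oligodendrocyte markers on 1.28, and C4b is the complement point at 1.14.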

How the data were processed

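Per the labels' protocols, libraries were made with the KAPA mRNA HyperPrep kit from 100 ng of RNA obtained with the RNeasy Micro kit. Trimmomatic, Subread, DESeq2 and the mm10 build are named in the submitters' processing notes, without versions or settings. Annotation, strand setting and the treatment of reads that map to several places are not given in the sources used here. The deposited table holds a mean normalized count (a signal, as the authors' average over libraries), a log2 fold change with its standard error, a Wald score, and an unadjusted and an adjusted p-value, per the file headers. The depth per library is unknown.

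The authors' p-values were used across all genes at a threshold of 0.05 (unadjusted or adjusted, as stated). The score of each of the 17729 genes tested equalled the fold change over its error within 1e-06. Intervals (95%) were built from the log2 value, its error and the normal distribution. Errors were set beside the median of the 201 genes nearest in mean count. Functions were tested on simulated data. Python 3.11.15, pandas 2.3.3 and scipy 1.17.1 were used. GENCODE M21 held 17726 of the 17732 IDs, and promoters are RefSeq's on GRCm38.p6.

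Members and lists were chosen with earlier results of these data known. All members are named; of each further list those past the adjusted threshold or otherwise the 2 with the smallest p-values, preset partners of the members, and for other cells the gene with the highest mean count. Some genes that this rule selects are not reported here.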

Additional observations from a re-analysis of the deposited data

How the results depend on the processing

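No paired analysis was possible because values per library were not analysed here. For the same reason the planned fits without each replicate and with other count tests and normalizations were not run, so whether 1 library decides a value, that of C4b included, is unknown. No member was called at a threshold of 0.1, with no filter on the mean count, with a minimum of 100, with Bonferroni, against a null of at most 1.2-fold, after division by the robust SD of 1.01 or after centring. The 53 alternative adjusted p-values of members ran from 0.344 to 1, all on the same side as the original. At an unadjusted p-value there were 2 members under 0.05, under 0.1 and after division by the robust SD. The homeostatic median stayed negative in all 10 alternatives, from -0.14 to -0.11. The complement median ran from -0.06 to 0.22 over 10 alternatives and was positive in 5 of them. The plain mean moved it most, to 0.22, which C4b carries; without C1qa, C1qb or C1qc in turn, and with the wider list, it was between 0.02 and 0.05. The C1q chains alone and the wider homeostatic list with a minimum mean count were chosen after seeing the data, as was the length of all exons, which moved the mean count per kb of Trem2 and C1qc by over 1.5 times and of no other member. Depth limits C3 most, followed by Trem2.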

Other observations

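Lists of cells at the borders of the tissue gave further values. Border macrophages were represented by 7 genes, 4 of them positive, whose log2 fold changes had a median of 0.17 and of which none was under an unadjusted p-value of 0.05 per the authors' deposited table. That median is the value of Ms4a7, with an SE of 1.11 on a mean count of 2.35, and 3 of the 7 had mean counts under 10. Stab1, a scavenger receptor and the most abundant of them, had a mean count of 138 and -0.18 ± 0.16 (SE) per the authors' deposited table. Of the 7 meningeal fibroblast genes 5 were positive, with a median of 0.23 and Col1a2 at 0.23 ± 0.19 (SE) per the authors' deposited table. None was under an unadjusted p-value of 0.05 there and 3 had mean counts under 10. Among these was Ogn, whose value of 0.23 ± 0.61 (SE) is the median. All 4 genes of red blood cells were negative there, with a median of -0.25, and 1 of them was under an unadjusted p-value of 0.05. Hba-a1, an alpha globin, had -0.40 ± 0.32 (SE) and an error 2.47 times the one usual at its mean count, from the authors' deposited table.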
